A study of Zea mays with 18 samples.

Results

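The response of microRNAs (miRNAs) to cold nights was examined in the meristem of leaf 4 of maize seedlings (Zea mays, hybrid ADA313). Chilled seedlings had nights at 4 °C, and control seedlings had nights at 20 °C. Both regimes shared days of 16 h at 25 °C, nights of 8 h, light of 15000 lux and a relative humidity of 70%. Each meristem group had 3 arrays, labelled as biological replicates, out of 18 arrays that also covered the elongation and the mature zone under both regimes. All 228 maize miRNA probe sets of the deposited table were taken, as the difference of the chilled meristem average minus the control meristem average. Probe sets with the same values in all 6 group averages were counted once, which left 147 distinct profiles from 28 families. Not stated in the labels are the length of the chilling, the way the meristem was cut and whether seedlings were pooled for a replicate.

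In a grass leaf the cells divide in a meristem at the base, then leave it, elongate and mature, so that the zones follow each other along the blade. Plant miRNAs are cut from a hairpin precursor into a pair of arms. The guide arm is the one that is usually loaded into ARGONAUTE and pairs with target transcripts, while the passenger arm is usually degraded. Many plant miRNA families target transcription factors that set organ growth, and others target genes of nutrient and copper use. Of the 147 profiles, 64 were guide arms by family convention and 83 were passenger arms.

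The deposited values are the authors' bi-weight averages over the arrays of a group, in log2 units, so no value of a single array can be given and overlap between arrays cannot be read. The ANOVA p-value over all 6 groups that the authors deposited was used to recover the spread of each profile. It gave every difference an SE, a 95% interval and a p-value from a moderated limma test, with Benjamini-Hochberg adjustment across the 147 profiles. The meristem averages ran from 0.87 to 12.65, with a median of 3.23 in the chilled and 3.33 in the control meristem. In both meristem groups 56 profiles lay under log2 2, taken here as background, and 91 reached it in at least 1 group. The table holds only probe sets with an ANOVA p of up to 0.040982, so that every share refers to a preselected set. No miRNA of the table marks the meristem by definition. In control leaves, miR319a/b/c/d-3p had a level of 10.47 in the meristem, 5.59 in the elongation zone and 5.34 in the mature zone, while miR396c/d had 3.70, 11.31 and 11.80.

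The chilled meristem differed from the control meristem in 2 miRNA profiles. The miR396c/d level, shared by a pair of guides against the growth-regulating factors that promote cell division, rose to 6.70 in the chilled meristem, against 3.70 in the control meristem. This is a difference of 3.00 on the log2 scale (SE 0.59, 95% interval 1.73 to 4.27) or 8.0-fold (limma adjusted p = 0.0130). The miR169l-5p level, a guide against transcripts of NF-YA transcription factors, fell to 5.42 in the chilled meristem, against 7.36 in the control meristem. Its difference was -1.94 (SE 0.21, 95% interval -2.40 to -1.48), or 3.84-fold lower (limma adjusted p = 5.16e-05). These 2 calls are 1.36% of the 147 profiles, with 1 profile (0.68%) higher and 1 (0.68%) lower. The miR396c/d call was lost when the recovered SD was enlarged by 1.2 times (limma adjusted p = 0.0635) or when 16 residual degrees of freedom were assumed (limma adjusted p = 0.0895), and miR169l-5p passed under each alternative run. In whole tissue, a change in the share of cells of a type and a change in RNA per cell cannot be told apart.

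With every probe set counted in the fit, as if identical probe sets were separate measurements, 8 profiles (5.44%) passed. The 6 added ones all had a limma adjusted p of 0.0491 in that fit, against 0.0537 to 0.0748 over distinct profiles. They included miR1432-5p, a guide whose family targets an acyl-CoA thioesterase gene in rice, with 4.40 in the chilled and 6.29 in the control meristem (difference -1.89, SE 0.47). Also among them was miR408b-5p, the passenger arm of a family that targets plantacyanins and laccases, with 6.60 in the chilled and 4.95 in the control meristem (difference 1.65, SE 0.44). The passenger arms miR166m-5p and miR166c-5p, of the family that targets HD-ZIP III transcription factors, had 7.33 and 7.40 in the chilled meristem, against 8.33 and 8.37 in the control meristem. Their differences were -1.0 (SE 0.26) and -0.97 (SE 0.25). The miR159f-5p passenger arm had 2.09 in the chilled and 1.26 in the control meristem (difference 0.83, SE 0.23), so its control level was at background. The remaining one was the miR395 3p profile shared by 11 probe sets (miR395a, b, d, e, f, g, h, i, j, n and p), with 8.30 in the chilled and 9.51 in the control meristem (difference -1.21, SE 0.35). The shared adjusted p of 0.0491 is that of this profile, counted 11 times. The adjustment carried it over to the other added profiles, all with a smaller p. The 6 added calls thus rest on 1 measurement counted 11 times and are not separate results.

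**Figure D1:**
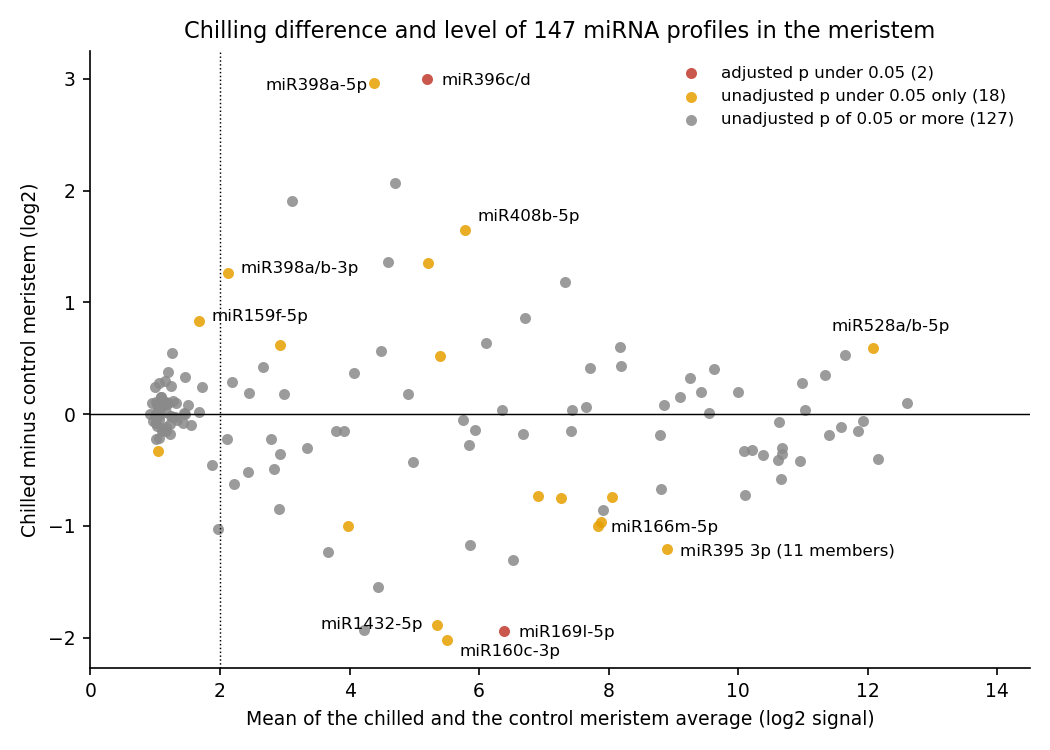
Each point is 1 of the 147 profiles. The x axis is the mean of the chilled and the control meristem average (log2 signal), the y axis is the chilled minus the control average (log2), the colours give the limma p class and the dotted line marks log2 2. The 2 profiles past the adjusted threshold lie at 3.00 and -1.94, and most profiles lie close to 0, with quartiles of -0.29 and 0.20.

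At an unadjusted limma p under 0.05 there were 20 profiles (13.6%), 9 higher (6.12%) and 11 lower (7.48%) in the chilled meristem. Their number and direction are descriptions, since 18 of them did not pass the adjustment. Over all 147 profiles 70 differences lay above 0, 74 below and 3 at 0. Counts by list and family below are read against these shares. Differences of at least 1 log2 unit, with no test, occurred in 21 profiles (14.3%), 9 higher and 12 lower. Which of these could be told from 0 depended on the spread of each profile, recovered over all 6 groups, and on the adjustment. The median SE of a difference was 0.27, and the median half-width of the 95% interval was 0.58. In 72 profiles the whole interval lay between -1 and 1, and in 38 the half-width was over 1. The miR398a-5p profile shows the second case, with 5.85 in the chilled and 2.89 in the control meristem. Its difference of 2.96 was nearly as large as that of miR396c/d, but its SE was 1.30 and its interval ran from 0.17 to 5.75 (limma adjusted p = 0.327).

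**Figure D2:**
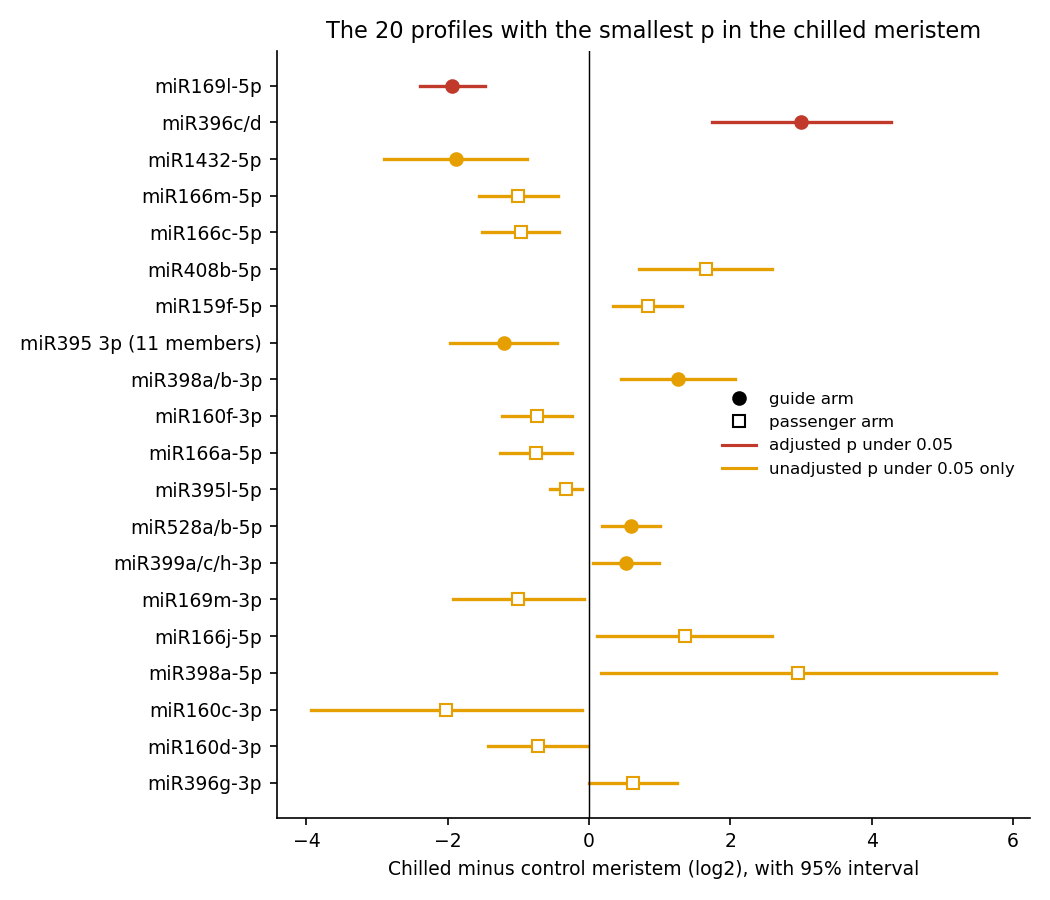
The 20 profiles with the smallest p are ordered from the top by p, with the chilled minus control meristem difference on the x axis (log2) and its 95% interval as a line. Filled circles are guide arms, open squares are passenger arms, and the 2 red intervals belong to the profiles past the adjusted threshold, while the widest interval, of miR398a-5p, reaches from 0.17 to 5.75.

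Families that act on leaf growth directly were described next. The growth list held the families miR159 (targets GAMYB factors), miR319 (TCP factors), miR396 (growth-regulating factors) and miR164 (NAC factors), with 23 profiles. The miR396c/d profile rose and 22 did not pass, with 3 higher and 0 lower at an unadjusted p under 0.05 in the limma fit. In either direction this share was near the 13.6% over all profiles, of which 6.12% were higher and 7.48% lower. The list's median difference was 0.10, against -0.01 over all 147 profiles. Among the miR396 guides, miR396a/b-5p had 1.31 in the chilled and 1.36 in the control meristem, and the profile of miR396h and miR396g-5p had 1.25 and 1.15 in the same order. The miR396e/f-5p guides had 1.00 in the chilled and 0.90 in the control meristem, so all guides of the family other than miR396c/d were at background under both regimes. The passenger profile miR396a/b-3p had 4.06 in the chilled and 2.15 in the control meristem (difference 1.91, SE 0.98, limma adjusted p = 0.384). The miR396g-3p passenger arm had 3.23 in the chilled and 2.61 in the control meristem (difference 0.62, SE 0.29, limma adjusted p = 0.348). Highest of the family was the miR396e-3p passenger arm, with 11.12 in the chilled and 10.84 in the control meristem. Its difference was 0.28 (SE 0.27, limma adjusted p = 0.795). These passenger arms by convention all read higher than the guides of the same hairpins.

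The 7 miR159 profiles all had a difference above 0, from 0.09 to 0.86, against 70 of 147 over all profiles, and none passed over distinct profiles. With quantile normalization 5 of the 7 were above 0 and the others were at 0. The abundant guides miR159c/d-3p had 12.65 in the chilled and 12.55 in the control meristem (difference 0.10, 95% interval -0.20 to 0.40). The miR159h/i-3p guides had 11.92 in the chilled and 11.39 in the control meristem (difference 0.53, SE 0.25, limma adjusted p = 0.348), and miR159g-3p had 7.14 and 6.28 in the same order. The 4 miR164 guide profiles had differences from -0.41 to -0.30, of which 2 were below and 1 above 0 with quantile normalization. The miR319a/b/c/d-3p guide, high in this zone, had 9.75 in the chilled and 10.47 in the control meristem (difference -0.72, 95% interval -2.30 to 0.86, limma adjusted p = 0.795).

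The list of phase change, polarity and meristem upkeep held miR156 and miR529 (SPL factors), miR172 (AP2-type factors), miR166 (HD-ZIP III factors, which set the upper side of the leaf), miR171 (GRAS factors) and miR394 (an F-box gene). None of its 47 profiles passed in the limma fit over distinct profiles, and 1 higher and 3 lower ones had an unadjusted p under 0.05. In this list 31 profiles lay below 0 and 14 above, whereas median subtraction placed 24 below and 23 above. Its median difference was -0.12. The guides of this list had levels and intervals of very unlike size. The miR156 5p profile shared by 10 probe sets had 11.78 in the chilled and 11.93 in the control meristem (95% interval -0.56 to 0.26), and miR171d/e/i/j-3p had 11.90 and 11.96 (95% interval -0.42 to 0.30). Wider intervals were those of miR529-5p, with 5.27 in the chilled and 6.44 in the control meristem (95% interval -3.61 to 1.27), and miR394a/b-5p, with 5.73 and 5.78 (95% interval -2.11 to 2.01). The weakest guide, miR171l/m-3p, had 2.75 in the chilled and 3.11 in the control meristem. The miR172a/b/c/d guide profile had 7.92 in the chilled and 6.74 in the control meristem (difference 1.18, SE 0.59, limma adjusted p = 0.384).

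Within miR166 the arms had unlike values. The 4 guide profiles had differences from -0.58 to -0.37, and in quantile-normalized data 3 of them were below 0 and 1 was at 0. Of the 11 passenger profiles, 7 lay below 0, 3 above and 1 at 0. Besides miR166m-5p and miR166c-5p, miR166a-5p had 6.89 in the chilled and 7.64 in the control meristem (difference -0.75, SE 0.24, limma adjusted p = 0.0861). In contrast, miR166j-5p had 5.88 in the chilled and 4.53 in the control meristem (difference 1.35, SE 0.58, limma adjusted p = 0.325). The miR166n-5p passenger arm had 10.59 in the chilled and 10.66 in the control meristem, and its difference of -0.07 turned to 0.03 with median subtraction and 0.46 with quantile normalization. The genes MIR166k and MIR166m follow each other with no other gene between them in the RefSeq annotation of maize. Their 5p arms had differences of 0.08 (8.90 in the chilled, 8.82 in the control meristem) and -1.0.

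**Figure D3:**
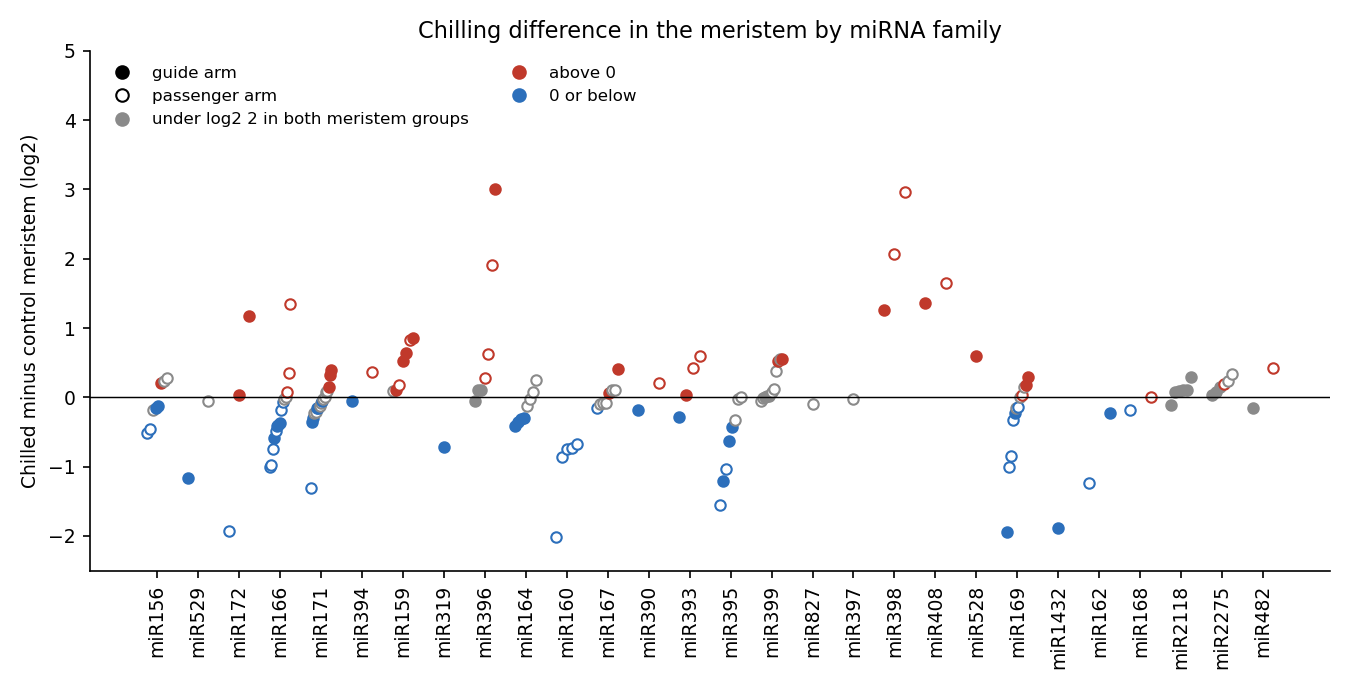
Every profile is 1 point in the column of its family, with the chilled minus control meristem difference on the y axis (log2). Filled points are guide arms, open points are passenger arms, red points lie above 0, blue points at 0 or below, and grey points under log2 2 in both meristem groups. The miR398, miR408 and miR528 profiles all lie above 0 and the 5 miR160 profiles all lie below 0.

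The copper list held miR397 (laccases), miR398 (copper/zinc superoxide dismutases), miR408 (plantacyanins and laccases) and miR528 (copper proteins), families known to answer to copper supply and oxidative stress. None of its 7 profiles passed in the limma fit over distinct profiles, and 4 of 7 had an unadjusted p under 0.05, all higher in the chilled meristem, against 9 of 147 higher (6.12%) over all profiles. Its median difference was 1.36, against -0.01 over all profiles, and 6 of 7 profiles lay above 0, against 70 of 147. With quantile normalization the list's median was 0.88. This list was known from earlier results of the same arrays to stand high, so its direction is not independent evidence. The guides miR398a/b-3p had 2.75 in the chilled and 1.49 in the control meristem (difference 1.26, SE 0.38, limma adjusted p = 0.0787), so their control level was at background. With quantile normalization of the group averages and the SE kept from the deposited values, that difference was 0.78 (limma adjusted p = 0.329). The guides of miR408a and miR408b had 5.28 in the chilled and 3.92 in the control meristem (difference 1.36, SE 0.69, limma adjusted p = 0.384). The miR528a/b-5p guides had 12.38 in the chilled and 11.79 in the control meristem (difference 0.59, SE 0.19, limma adjusted p = 0.0945), which placed them as rank 2 of 147 signals in the chilled and rank 5 in the control meristem. Signals of different probes are not amounts per molecule, so these ranks describe the array only.

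The auxin list held miR160 and miR167 (auxin response factors), miR390 (TAS3 transcripts) and miR393 (auxin receptors), with 19 profiles. None passed in the limma fit, and 3 had an unadjusted p under 0.05, all of them miR160 passenger arms lower in the chilled meristem. The miR160 family was measured by 3p passenger arms only, and its 5 profiles had differences from -2.02 to -0.67. All 5 stayed below 0 with median subtraction and with quantile normalization. The miR160f-3p level was 7.68 in the chilled and 8.42 in the control meristem (difference -0.74, SE 0.23, limma adjusted p = 0.0861). The miR160d-3p level was 6.54 in the chilled and 7.27 in the control meristem, and miR160c-3p had 4.50 and 6.52 in the same order, with a wider SE of 0.89. The 2 miR167 guide profiles had differences of 0.06 and 0.41.

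The sulfate and phosphate list held miR395 (ATP sulfurylases and a sulfate transporter), miR399 (the PHO2 regulator of phosphate uptake) and miR827 (SPX domain genes). None of its 20 profiles passed over distinct profiles in the limma fit, with 1 higher and 2 lower at an unadjusted p under 0.05. In both groups 13 of the 20 were at background. Among these was 1 of the 2 lower ones, miR395l-5p, with 0.88 in the chilled and 1.21 in the control meristem. The families had unlike values. All 3 miR395 guide profiles lay below 0, from -1.21 to -0.43, under each scaling, and 5 of 5 miR399 guide profiles lay above 0, from 0.01 to 0.56, of which 2 stayed above 0 with quantile normalization. The miR399a/c/h-3p guides had 5.65 in the chilled and 5.13 in the control meristem (difference 0.52, SE 0.21, limma adjusted p = 0.315). Of the 11 members of the shared miR395 profile, 10 matched a gene of the RefSeq annotation, and 8 of these form an unbroken row of 8 neighbouring MIR395 genes. Since these members have identical values, the difference cannot be assigned to any of the genes. MIR395n, MIR395o and MIR395p form another row. In it miR395o-3p has a profile of its own, with 1.90 in the chilled and 2.53 in the control meristem (difference -0.63, SE 0.34), while n and p belong to the shared profile.

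The stress list of miR169 and miR1432 had 13 profiles, of which miR169l-5p fell and 12 did not pass, with 0 higher and 3 lower at an unadjusted p under 0.05. Of the other miR169 guides, which target the same factors, miR169d had 2.68 in the chilled and 2.90 in the control meristem, and miR169e had 2.33 and 2.04 in the same order. The miR169m/n/q-5p guides had 3.08 in the chilled and 2.90 in the control meristem (difference 0.18, 95% interval -0.40 to 0.76). Differences between these guides and miR169l-5p were not tested. The small RNA machinery list of miR162 (DCL1) and miR168 (AGO1) had 4 profiles with none past the limma threshold or at an unadjusted p under 0.05. The miR162-5p passenger arm had 3.06 in the chilled and 4.29 in the control meristem, with an interval from -2.96 to 0.50, and the miR168a-3p passenger arm had 9.56 and 9.55. Of the 14 profiles of the triggers of phased small RNAs (miR2118, miR2275 and miR482) 12 were at background in both groups. None passed in the limma fit or had an unadjusted p under 0.05.

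Both arms of a hairpin could be compared in 26 pairs whose arms each reached log2 2 in at least 1 meristem group, made of 17 guide and 26 passenger profiles, so that several pairs share a guide profile. In 18 pairs the arms lay on the same side of 0 and in 8 on opposite sides. Of the 18, 4 pairs entered through an arm that was under log2 2 in 1 group (miR398a/b-3p in the control meristem, miR395b-5p and miR156e-3p in the chilled meristem), whose direction is tied to that filter. The 22 pairs with both arms at log2 2 or more in both groups held 14 on the same side and 8 on opposite sides. With quantile normalization the 26 pairs gave 12 and 7, the others having an arm at 0. For miR408b the guide arm had a difference of 1.36 and the passenger arm one of 1.65, both from levels above background. The miR398a and miR398b hairpins share the miR398a/b-3p guide profile, whose 1.26 is a difference against a control level of 1.49, under background. For miR398b the passenger arm had 5.74 in the chilled and 3.67 in the control meristem (difference 2.07, SE 1.06). For miR169l both arms lay below 0, with -1.94 for the guide and -0.85 for the passenger arm (2.48 in the chilled, 3.33 in the control meristem, SE 0.61). The widest opposite pair was miR172c, where the shared guide profile had a difference of 1.18 and the passenger arm one of -1.93 (3.26 in the chilled, 5.19 in the control meristem, SE 1.09). Neither arm of miR172c passed (limma adjusted p = 0.384 and 0.447).

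**Figure D4:**
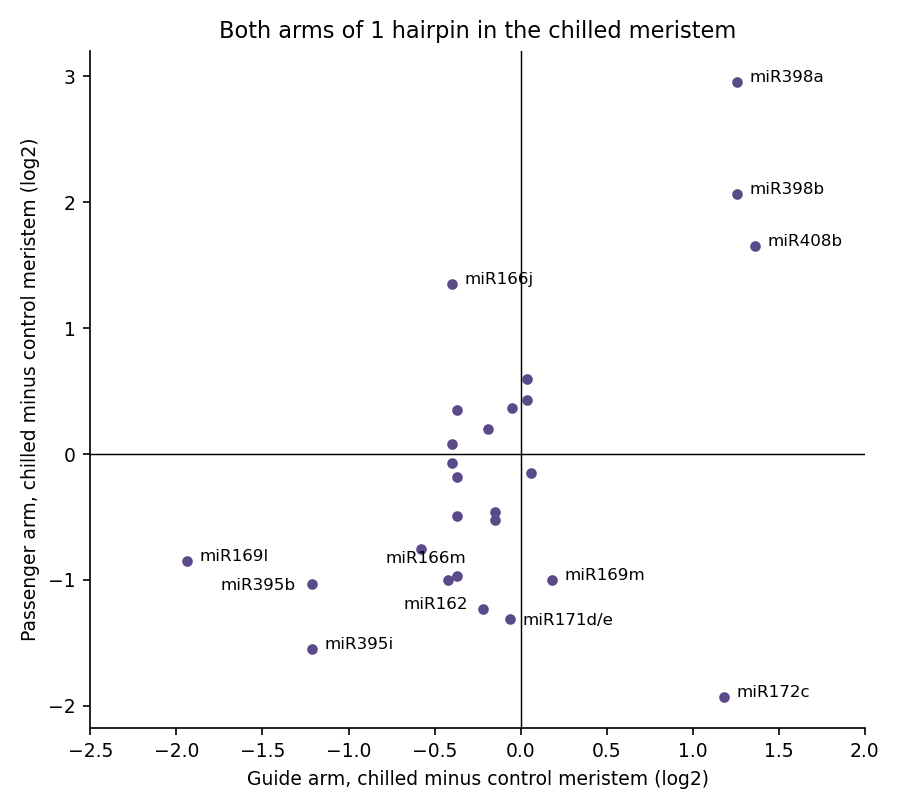
Each point is a hairpin whose arms each reached log2 2 in at least 1 meristem group. The x axis is the difference of the guide arm and the y axis that of the passenger arm, both as chilled minus control meristem (log2). The miR398a, miR398b and miR408b hairpins lie at the upper right (the first pair shares 1 guide profile), miR395i, miR395b and miR169l at the lower left, and miR172c at 1.18 and -1.93.

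The chilling effect in the meristem was then set against the effect in the elongation and the mature zone, contrasts that share no arrays with it but use the same recovered SD. The rise of miR396c/d in the meristem had no counterpart of like size in the other zones. Chilled and control levels were 11.26 and 11.31 in the elongation zone and 11.41 and 11.80 in the mature zone. Those levels were near the top of the signal, as the highest meristem average of any profile was 12.65. Whether a rise of like size could be registered at such levels was not tested. The difference between the meristem effect and the mature zone effect was 3.39 (SE 0.84, limma adjusted p = 0.0222). This call was lost with the enlarged SD (limma adjusted p = 0.0837) or 16 residual degrees of freedom (limma adjusted p = 0.105). Against the elongation zone the difference of effects was 3.05 and did not pass (limma adjusted p = 0.270), while with median subtraction it was 3.49 and passed (limma adjusted p = 0.0394). The chilled meristem value of 6.70 stood between the control meristem (3.70) and the control elongation zone (11.31).

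The miR169l-5p fall was seen in every zone, with effects of -1.45 in the elongation zone (limma adjusted p = 0.00142) and -1.27 in the mature zone (limma adjusted p = 0.000814). Its meristem effect differed from these by -0.49 and -0.67 (SE 0.30). Neither difference passed (limma adjusted p = 0.554 and 0.270, unadjusted p = 0.128 and 0.0441). The control level of miR169l-5p was 7.36, 7.73 and 7.64 along the zones, and its chilled level was 5.42, 6.28 and 6.37. Of the profiles that passed with every probe set counted, miR408b-5p had 9.55 in the chilled and 8.06 in the control elongation zone, and 8.76 and 6.84 in the mature zone. The miR166c-5p level was 5.55 in the chilled and 6.45 in the control elongation zone (difference -0.90), and miR166m-5p had 5.48 and 5.97 (-0.49). Both were at background in the mature zone, and miR159f-5p was at background in both of these zones. The miR1432-5p profile had 3.07 in the chilled and 2.94 in the control elongation zone, and both mature levels were at background. Its meristem effect did not pass as different from that in either zone (limma adjusted p = 0.270 for each). The miR395 3p profile had 10.31 in the chilled and 10.62 in the control elongation zone, and 10.20 and 10.54 in the mature zone. Its differences of effects did not pass either (limma adjusted p = 0.542 against the elongation and 0.406 against the mature zone).

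**Figure D5:**
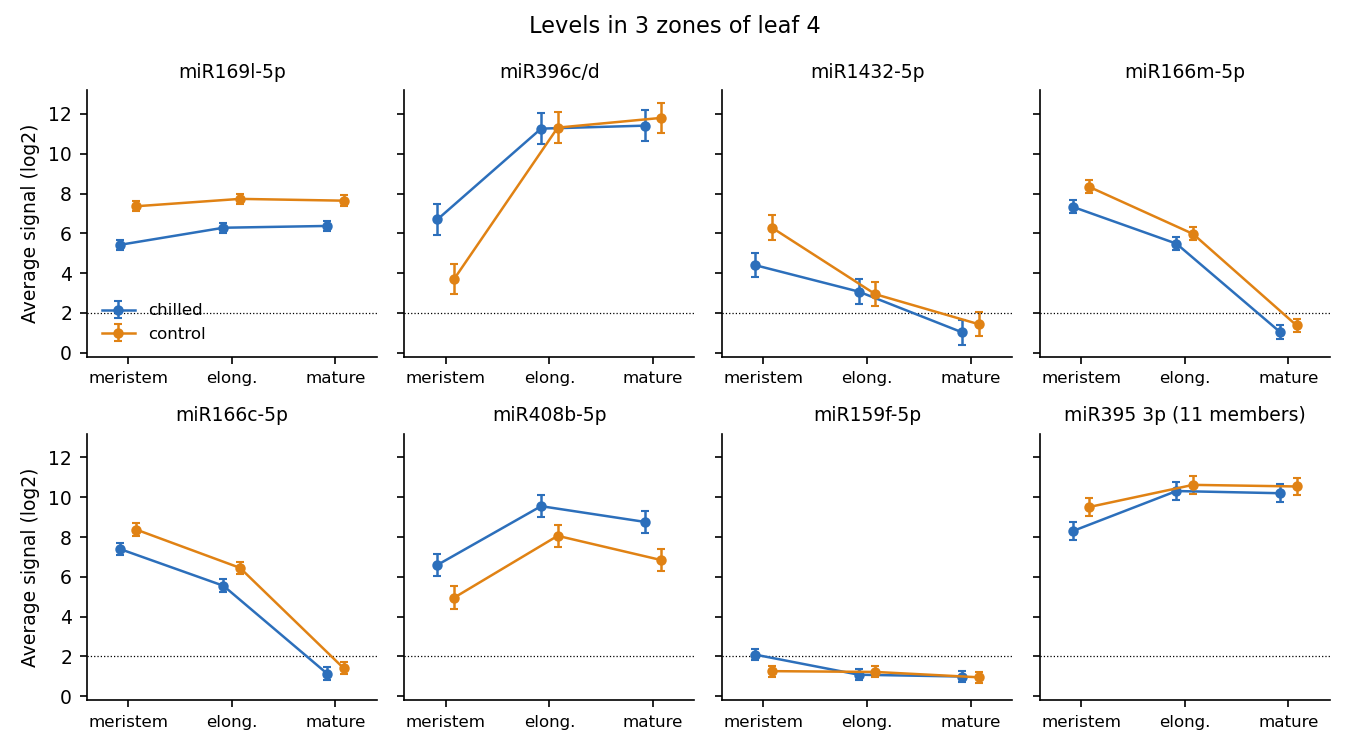
The 8 profiles that passed in the meristem over distinct profiles or with every probe set counted are plotted along the zones (x axis) by average log2 signal (y axis), chilled in blue and control in orange. Bars are the recovered SD of the profile and the dotted line is log2 2. The lines of miR396c/d lie 3.00 apart in the meristem and 0.05 in the elongation zone, while those of miR169l-5p and miR408b-5p stay apart in all 3 zones.

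The same 8 profiles can be set beside the step between zones in control leaves, given as the elongation zone minus the meristem. That step and the chilling difference both subtract the average of the same control meristem arrays. An error in that average moves both the same way, so the values are given side by side only. The step was 7.61 for miR396c/d (chilling difference 3.00) and 3.11 for miR408b-5p (1.65). It was -3.35 for miR1432-5p (-1.89), -2.36 for miR166m-5p (-1.0) and -1.92 for miR166c-5p (-0.97). For the remaining 3 profiles the step was 0.37 for miR169l-5p (-1.94), -0.04 for miR159f-5p (0.83) and 1.11 for the miR395 3p profile (-1.21). The guide miR319a/b/c/d-3p, with a step of -4.88, had a chilling difference of -0.72 that did not pass. The part of the zone cut in these differences was not tested.

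Over all profiles, the test of the difference of effects called 0 profiles (0%) between the meristem and the elongation zone in limma, with 16 at an unadjusted p under 0.05, 5 higher and 11 lower in the meristem. Between the meristem and the mature zone it called 11 profiles (7.48%), 8 with a higher and 3 with a lower effect in the meristem. Of these 11, 9 passed for chilling in the mature zone and 1, miR396c/d, in the meristem. Chilling itself called 4 profiles (2.72%) in the elongation zone and 21 (14.3%) in the mature zone. Of the 20 meristem profiles at an unadjusted p under 0.05, 16 had an effect of the same sign in the elongation zone and 15 in the mature zone. Over all profiles with non-zero effects these counts were 77 of 144 and 81 of 141. Across the 147 profiles, which are not independent, the meristem effects had a Pearson r of 0.431 with the elongation zone effects and 0.227 with the mature zone effects (Spearman rho 0.256 and 0.130).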

How the data were processed

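Per the labels' protocols, RNA came from a Trizol extraction and 10 µg of it was labelled with biotin (FlashTag HSR). The submitters' processing notes name Affymetrix Expression Console. Its version, the scaling between arrays and the genome build were not found in the labels or file headers. The authors deposited log2 bi-weight averages of each group, and a p-value and FDR of an ANOVA over all 6 conditions, per the file headers. The ANOVA p was turned back into F (5 and 12 degrees of freedom), and the variance of the 6 averages, times 3 arrays, was divided by F. This assumes an ordinary ANOVA with equal spread and treats each bi-weight average as if it were a mean. Variances were moderated with squeezeVar of limma 3.58.1 in R 4.3.3 (prior degrees of freedom 1.78, total 13.8), and contrasts tested two-sided at an adjusted p of 0.05; preselection on the same ANOVA means the false discovery rate is not strictly held. The script was tested on simulated arrays drawn with equal spread in all groups and averaged as plain means. That test therefore could not check the assumptions of equal spread and of a bi-weight average acting as a mean. Depth does not exist for arrays, and 3 per group limits the precision. The p-values rest on a spread recovered over all 6 groups and moderated, not on the observed spread of the meristem arrays alone.

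Named profiles were those past the threshold over distinct profiles or over every probe set, the 20 with the smallest p, up to 4 per list with the largest difference at log2 2 or more, the 5 highest signals per group, other arms of these, and miR319 for the zones. Profiles past the threshold between zones are named in the closing section. Members, lists and tests were chosen with earlier results of these data known. Guide arms follow convention for each family. Of 157 miRNA genes 150 matched RefSeq genes (assembly Zm-B73-REFERENCE-NAM-5.0), used for names and neighbours. Alternatives were other scalings, moderation, degrees of freedom, SD, filters and adjustments, and 2 chosen after seeing the data (the ANOVA p at the upper end of its rounding, and arm pairs above background in both groups). Median subtraction and quantile normalization were applied to the group averages, not to arrays. Their p-values keep the SE of the deposited values, so the spread after such scaling was not estimated.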

Additional observations from a re-analysis of the deposited data

Results flagged for a closer look

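The chilling effect differed between the meristem and the mature zone in 11 profiles by the limma test of that difference, of which miR396c/d (3.39) is described above. For each, the effect in the meristem is given before that in the mature zone, each as chilled minus control. The miR159e-3p guide had effects of 0.64 and -3.03 (difference of effects 3.67, adjusted p = 0.00771). The miR166h-5p passenger arm had -0.49 and -3.13 (2.64, adjusted p = 0.00771), and miR166b/d-5p had 0.35 and -3.08 (3.43, adjusted p = 0.00771). The miR390a/b-3p passenger arm had 0.20 and -2.95 (3.15, adjusted p = 0.00771). The miR399d-3p guide had 0.56 and -2.37 (2.93, adjusted p = 0.00771), whereas miR399a/c/h-3p of the same family had 0.52 and 1.59 (-1.07, adjusted p = 0.0465). The miR172a/b/c/d profile had 1.18 and -2.63 (3.81, adjusted p = 0.0119), and miR169m-3p had -1.0 and -3.26 (2.26, adjusted p = 0.0377). The miR160f-3p passenger arm had -0.74 and 0.61 (-1.35, adjusted p = 0.0201). The miR827-5p passenger arm, at background in the meristem, had -0.09 and 0.84 (-0.93, adjusted p = 0.0465). Its mature level was 2.68 in the chilled and 1.84 in the control leaf, so the control was at background there too. The chilled mature level was under log2 2 for miR159e-3p, miR166h-5p, miR390a/b-3p, miR399d-3p and miR172a/b/c/d. Of the 10 alternatives with an adjusted p, miR159e-3p and miR399d-3p passed under all 10, miR166b/d-5p and miR172a/b/c/d under 9, and miR390a/b-3p and miR396c/d under 8. The calls of miR160f-3p (6 of 10, adjusted p up to 0.205), miR169m-3p (5 of 10, up to 0.702) and miR399a/c/h-3p (4 of 10, up to 0.210) were lost more often. The low-signal miR166h-5p passed under 9 of 9 and miR827-5p under 4 of 8 (up to 0.148) of those that kept them.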

How the results depend on the processing

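No paired analysis was possible because the table holds group averages and no single arrays, so the fit with the replicate number as a block and the fits leaving out a replicate were not run. Over distinct profiles 2 passed in the meristem. The count was 8 with every probe set and 3 without moderation, where the added profile was miR395l-5p, at background in both groups. It was 6 with quantile normalization, a trended robust prior or a meristem average of at least 4. With joint adjustment over the chilling contrasts the count was 7. It was 11 by unadjusted p with a difference of at least 1, and 1 with 16 residual degrees of freedom or the enlarged SD. Between the effects in the meristem and the mature zone 11 passed, against 29 (17 of them lower in the meristem, and 7 of the 11 among them) with quantile normalization, 7 with the trended prior and 5 with 16 degrees of freedom or the enlarged SD. Between the meristem and the elongation zone 0 passed, against 5 with median subtraction and 6 by unadjusted p with a difference of at least 1. Median subtraction moved every meristem difference by 0.10. It turned the small differences of miR166n-5p (0.03), miR396a/b-5p (0.05), miR171d/e/i/j-3p (0.04), miR399h-5p (0.05) and miR395n-5p (0.07) above 0. Quantile normalization turned miR166n-5p (0.46), miR168b-3p (0.11) and miR168a-3p (-0.17), and set miR159c/d-3p and the miR166 3p profile of 8 probe sets to 0. Of 722 values for 63 named differences under 12 alternatives, 676 kept direction and side of the threshold, 34 newly passed, 2 no longer passed (both miR396c/d) and 10 turned or reached 0. For the 11 profiles and miR169l-5p, 26 of 129 values of the meristem minus the mature zone effect no longer passed and 0 turned. The cause of these changes was not tested.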
